A study of Mus musculus with 10 samples.

Results

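Monocyte marker genes are the subject here, 9 of them: the transcription factor gene Klf4, the chemokine receptor genes Ccr2 and Cx3cr1, the receptor genes Cd14 and Fcgr3, the tetraspanning membrane protein gene Ms4a6c, and the genes of the secreted or lysosomal proteins Lyz2, Ctss and F13a1. They were chosen by name, as the rows of the deposited gene tables whose identifier is one of these symbols. All 9 were found among 50600 rows, and all 9 were among the 14875 genes that passed a filter on low counts. Bulk RNA-seq libraries, 1 per C57BL/6 mouse, were made from spleen tumors driven by Cbfb::MYH11 (2 mice), MLL::AF9 (3 mice) or MLL::ENL (3 mice), and from bone marrow cKit+ cells without a translocation (WT, 2 mice). The Cbfb::MYH11 mice (genotype Mx+; Hygr+) carried a floxed Cbfb::MYH11 allele that Mx-1 Cre, a recombinase under an interferon-inducible promoter, switches on after Poly(I:C), which their labels place at postnatal day 45. The MLL::AF9 mice (genotype MLL-AF9 +/-) were untreated transgenic animals. The MLL::ENL tumors, also labelled untreated, arose in lethally irradiated WT mice from WT Lin- Sca-1+ cKit+ cells carrying an MLL::ENL retrovirus, and these hosts also received WT bone marrow without the fusion. Cells were purified by magnetic selection, which the labels give as cKit+ for both WT libraries and for Cbfb::MYH11 27, as "cKit_" for Cbfb::MYH11 30, and as Mac1/Gr1/cKIT for all MLL tumors. The labels give no age of the single mice at collection. Tissue, selection and the way each tumor was made go with the condition and cannot be told apart from the translocation.

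Monocytes are bone marrow-derived phagocytes that arise from myeloid progenitors under transcription factors such as PU.1 (Spi1), IRF8, the C/EBP proteins and KLF4. In mice, classical monocytes carry CCR2, which lets them leave the marrow towards the chemokine CCL2, while patrolling monocytes carry more CX3CR1 and depend on Nr4a1. Several monocyte genes are shared with other myeloid cells: Lyz2 is also a gene of neutrophils and macrophages, and Fcgr3 is also carried by neutrophils, mast cells and natural killer cells. Cbfb encodes the partner of the RUNX transcription factors, which take part in myeloid development.

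Libraries held between 12134917 and 20510574 expected counts, and levels are given as CPM, the usual depth-normalised count, over the TMM-scaled library total, a scaling that evens out differences in composition. Values within a group follow a fixed order of mice, which is 30 then 27 among Cbfb::MYH11, 2 then 47 then 42 among MLL::AF9, NO then RL then L among MLL::ENL, and 1 then 2 among WT. Among the selection antigens, Kit had 187 and 290 CPM in Cbfb::MYH11 tumors, 31.3 to 119 CPM in MLL tumors and 65.6 and 88.6 CPM in WT cKit+ cells. Itgam, which encodes CD11b of the Mac1 antigen, had 11.0 and 6.04 CPM, 342 to 1004 CPM, and 458 and 643 CPM in the same order. Erythroid markers summed to 204791 and 41384 CPM in WT cKit+ cells and at most 9881 CPM in any tumor. Eosinophil markers summed to 15932 and 6015 CPM and at most 30.2 CPM. The part of such cells in the differences from WT was not tested. The sex label did not match for 4 of the 10 libraries: the MLL::AF9 tumor 47 and the MLL::ENL tumors NO and RL, labelled female, had 123 to 175 CPM of 4 Y-linked genes, and MLL::AF9 42, labelled male, had 0 CPM of them and 172 CPM of Xist. The numbers 42 and 47 are interchanged between the labels and the names of the deposited tables, so these libraries may be swapped within MLL::AF9, the condition both labels give. Leaving out any 1 of these 4 libraries left the counts of marker genes given below within 1.5 times, or at 0, except that 1 gene passed in each comparison of MLL::AF9 without MLL::AF9 47.

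In Cbfb::MYH11 tumors the monocyte marker genes were low, and 3 of the 9 were lower than in WT cKit+ cells: Lyz2, which encodes the lysozyme of myeloid cells, Cx3cr1, the receptor of fractalkine, and Fcgr3, a low-affinity receptor for immunoglobulin G. The level of each of the 9 in both Cbfb::MYH11 tumors was below that in both WT libraries, a separation that 31.9% of all genes tested showed. Of all genes tested, 10.5% passed in this comparison, and 6.92% passed as lower. Against Cbfb::MYH11 tumors, 8 of the 9 genes were higher in the MLL tumors, taken as the mean of the MLL models. Of all genes tested, 13.2% received this call (25.6% in either direction, 12.4% as lower). Only Ctss, which encodes the protease cathepsin S, did not pass. For Ccr2, MLL::AF9 tumors had 66.3 to 230 CPM and MLL::ENL tumors 23.9 to 48.9 CPM, beside 23.1 CPM in each Cbfb::MYH11 tumor. No marker gene passed between MLL::AF9 or MLL::ENL tumors and WT cKit+ cells, or between the MLL models, by edgeR's quasi-likelihood test with Benjamini-Hochberg adjusted p under 0.05. In bulk RNA, the number of cells that carry these transcripts and the amount per cell cannot be told apart. The cells may be monocytes or others, such as the tumor cells themselves or neutrophils, and which they were was not tested.

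**Figure D1:**
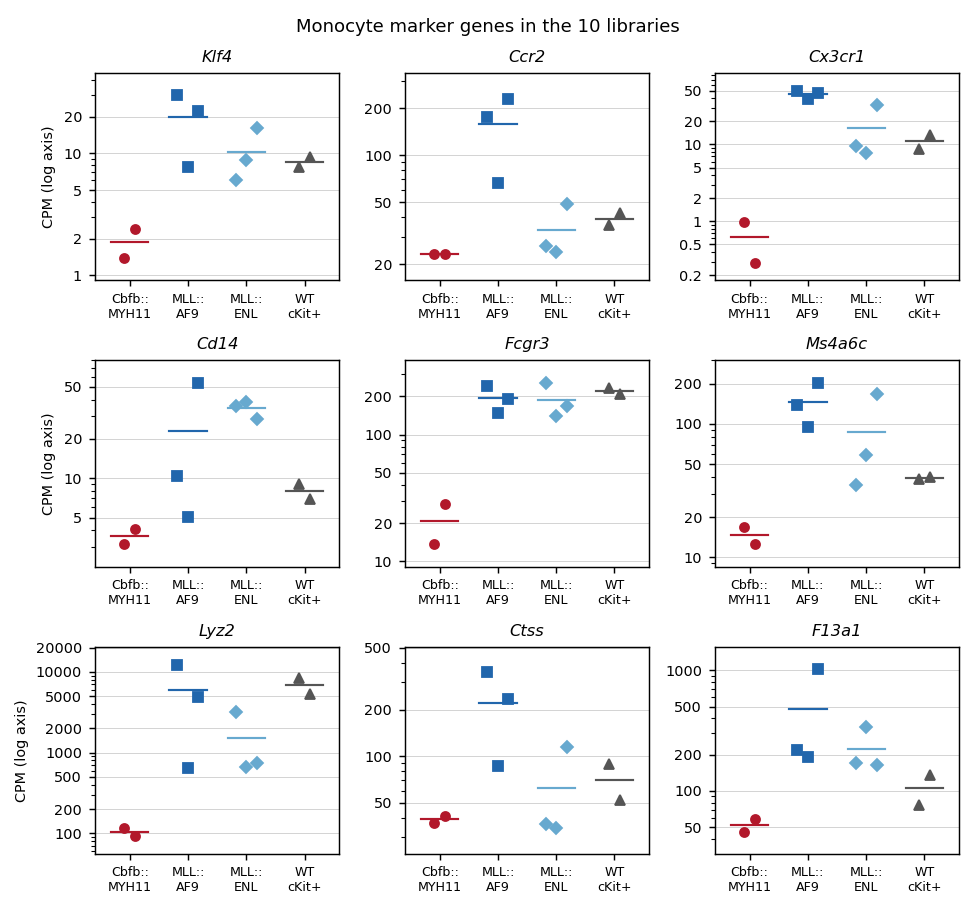
Level of each monocyte marker gene in the 10 libraries, in CPM on a log axis, by condition, with a point per library and a bar at the mean of each condition. The Cbfb::MYH11 tumors lie below both WT libraries in all 9 panels, as in Lyz2 with 118 and 93.2 CPM against 8509 and 5373 CPM.

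The genes that were lower in Cbfb::MYH11 tumors, and Ctss, the gene that did not pass between the MLL tumors and these tumors, are shown with the 250 bases before their start, from RefSeq on GRCm38.p6 and read 5′ to 3′ on the strand of the gene. They lie at chr9:120068297-120068546 on the minus strand for Cx3cr1, chr10:117282273-117282522 on the minus strand for Lyz2, chr1:171059404-171059653 on the minus strand for Fcgr3, and chr3:95526536-95526785 on the plus strand for Ctss. That of Fcgr3 precedes the start used by RefSeq for the sequence and lies within the span of the gene. Capitals mark matches, on either strand, to 4 short motifs of factors that act in myeloid cells: GAGGAA for PU.1, TTNNGNAA for C/EBP, TGTGGT for RUNX and, for IRF, GAAA followed after any 2 bases by GAAA again.
Cx3cr1: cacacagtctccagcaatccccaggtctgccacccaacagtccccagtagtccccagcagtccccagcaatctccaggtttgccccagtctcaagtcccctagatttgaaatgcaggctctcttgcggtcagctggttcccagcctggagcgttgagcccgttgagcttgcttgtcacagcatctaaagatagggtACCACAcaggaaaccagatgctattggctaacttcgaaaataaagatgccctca
Lyz2: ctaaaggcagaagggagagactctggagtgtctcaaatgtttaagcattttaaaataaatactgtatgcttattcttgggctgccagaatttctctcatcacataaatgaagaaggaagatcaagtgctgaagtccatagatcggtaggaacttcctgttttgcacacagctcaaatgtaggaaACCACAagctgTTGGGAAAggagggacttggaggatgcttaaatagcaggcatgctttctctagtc
Fcgr3: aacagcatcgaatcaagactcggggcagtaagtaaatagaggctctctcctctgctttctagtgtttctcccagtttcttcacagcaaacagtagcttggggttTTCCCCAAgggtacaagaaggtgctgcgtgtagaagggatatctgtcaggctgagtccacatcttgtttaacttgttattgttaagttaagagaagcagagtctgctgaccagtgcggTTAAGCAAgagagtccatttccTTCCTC
Ctss: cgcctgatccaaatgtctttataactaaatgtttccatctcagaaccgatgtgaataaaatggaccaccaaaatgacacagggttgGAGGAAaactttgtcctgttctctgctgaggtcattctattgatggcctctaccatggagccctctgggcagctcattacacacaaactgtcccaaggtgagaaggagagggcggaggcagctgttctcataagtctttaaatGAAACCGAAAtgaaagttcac
Cx3cr1 held a RUNX match 54 bases before the start, Lyz2 held a RUNX match at 66 bases and a C/EBP match at 55 bases, and Fcgr3 held C/EBP matches at 146 and 28 bases and a PU.1 match at 6 bases. Ctss held a PU.1 match at 164 bases and an IRF match at 21 bases. Promoters were given for 8 of the 9 genes, and among these 8 the C/EBP letters occurred in 5, PU.1 in 3, RUNX in 2 and IRF in 1. Over all 32851 promoters of the same length, 36.8% held the C/EBP letters, 23.3% PU.1, 14.0% RUNX and 2.98% IRF. Of the other genes, F13a1 held PU.1 and C/EBP letters, Ms4a6c and Ccr2 held C/EBP letters, and Klf4 held none of the 4. These are matches of letters and not sites of binding.

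Klf4, a zinc finger transcription factor needed for the making of monocytes in mice, lies at chr4:55527137-55532475 and was, per length, among the 3 lowest of the 9 genes. Its level was 1.39 and 2.38 CPM in Cbfb::MYH11 tumors, 29.9, 7.73 and 22.3 CPM in MLL::AF9 tumors, 6.03, 8.75 and 16.2 CPM in MLL::ENL tumors, and 7.74 and 9.35 CPM in WT cKit+ cells. Both Cbfb::MYH11 tumors stood below every other library, and the MLL tumors overlapped the WT libraries. The difference between MLL and Cbfb::MYH11 tumors passed, with a log2 fold change of 2.93 (SE, the standard error, 0.66, edgeR adjusted p = 0.010). Against WT cKit+ cells the Cbfb::MYH11 tumors differed by −2.18 (SE 0.70), which did not pass (edgeR adjusted p = 0.078). It passed in 4 of the 17 alternatives, namely by DESeq2, without a filter, with only the groups compared and without MLL::AF9 47 (adjusted p = 0.021 to 0.040). Its close relative Klf2, a quiescence and trafficking factor of blood cells, was lower in Cbfb::MYH11 tumors, at 2.58 and 5.64 CPM, than in WT cKit+ cells, at 90.5 and 53.6 CPM (log2 fold change −4.13, edgeR adjusted p = 0.016). This call of Klf2 was lost without WT 1 or without either Cbfb::MYH11 tumor, with adjusted p up to 0.11.

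Ccr2, the receptor by which classical monocytes leave the marrow, lies at chr9:124101918-124109140. It had 23.1 CPM in each Cbfb::MYH11 tumor, 176, 66.3 and 230 CPM in MLL::AF9 tumors, 26.2, 23.9 and 48.9 CPM in MLL::ENL tumors, and 35.7 and 42.5 CPM in WT cKit+ cells. All MLL::AF9 tumors stood above every other library, while the MLL::ENL tumors spanned the WT libraries. The MLL tumors were higher than Cbfb::MYH11 tumors by 1.64 on the log2 scale (SE 0.48, edgeR adjusted p = 0.032), and this did not pass without WT 1, WT 2 or either Cbfb::MYH11 tumor (edgeR adjusted p = 0.055, 0.055, 0.15 and 0.19). Between MLL::AF9 and MLL::ENL tumors the log2 fold change was 2.26 (SE 0.45), with an unadjusted p of 5.7e-04 and an edgeR adjusted p of 0.21. Against WT cKit+ cells, MLL::AF9 tumors differed by 2.01 (SE 0.52, edgeR adjusted p = 0.066). Without MLL::AF9 47 both differences passed, at 2.62 (adjusted p = 0.027) against MLL::ENL and 2.38 (adjusted p = 0.029) against WT. The CCR2 ligands Ccl2, Ccl7 and Ccl12 had at most 0.839 CPM in any library.

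Cx3cr1, the receptor of the membrane-bound chemokine fractalkine and a marker of patrolling monocytes, lies next to the promoter shown above at chr9:120048683-120068296. It had 0.979 and 0.291 CPM in Cbfb::MYH11 tumors, from 19 and 5 counts, 50.3, 39.3 and 47.4 CPM in MLL::AF9 tumors, 9.47, 7.76 and 32.5 CPM in MLL::ENL tumors, and 8.85 and 13.5 CPM in WT cKit+ cells. The Cbfb::MYH11 tumors were the lowest and the MLL::AF9 tumors the highest, with no overlap between either and the rest. Against WT cKit+ cells Cx3cr1 fell by 4.11 on the log2 scale in Cbfb::MYH11 tumors (SE 0.81, edgeR adjusted p = 0.013). The MLL tumors exceeded Cbfb::MYH11 tumors by 5.41 (SE 0.81, edgeR adjusted p = 0.0013), the largest of these differences among the 9 genes. MLL::AF9 tumors differed from WT cKit+ cells by 2.03 and from MLL::ENL tumors by 1.46, and neither passed (edgeR adjusted p = 0.11 and 0.41). Its ligand gene Cx3cl1 had at most 1.13 CPM. Without WT 2 or Cbfb::MYH11 27, the difference between Cbfb::MYH11 tumors and WT cKit+ cells no longer passed (edgeR adjusted p = 0.060 and 0.0995). With limma on log2(TPM + 1), a scale that understates changes of low genes, it was −1.37 (adjusted p = 0.23), and by limma-voom it was −4.30 (adjusted p = 0.058).

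Cd14, the coreceptor that hands bacterial lipopolysaccharide to the TLR4 complex, lies on chromosome 18. It had 3.14 and 4.07 CPM in Cbfb::MYH11 tumors, 10.5, 5.04 and 53.6 CPM in MLL::AF9 tumors, 35.7, 38.6 and 28.6 CPM in MLL::ENL tumors, and 9.08 and 6.89 CPM in WT cKit+ cells. It was the only gene of the 9 with a higher mean in MLL::ENL than in MLL::AF9 tumors, at 34.3 ± 5.16 CPM against 23.0 ± 26.6 CPM (SD, n = 3 each), but the libraries overlapped and the difference of MLL::AF9 from MLL::ENL, −0.57 on the log2 scale, did not pass (edgeR adjusted p = 0.87). The MLL tumors were higher than Cbfb::MYH11 tumors by 2.96 (SE 0.85, edgeR adjusted p = 0.030), which did not pass without WT 1, WT 2 or either Cbfb::MYH11 tumor (edgeR adjusted p 0.051 to 0.16). All MLL::ENL tumors stood above both WT libraries, with a log2 fold change of 2.10 that did not pass (edgeR adjusted p = 0.18). Lbp, whose protein loads lipopolysaccharide onto CD14, had 4.48 and 4.77 CPM in Cbfb::MYH11 tumors against 173 and 166 CPM in WT cKit+ cells, and its log2 fold change of −5.19 passed in every fit that left out 1 library (highest adjusted p over all alternatives 0.011). Tlr4, the signalling receptor, was lower in Cbfb::MYH11 tumors by the same test, at 1.96 and 1.98 CPM against 15.7 and 25.2 CPM in WT cKit+ cells (log2 fold change −3.38, edgeR adjusted p = 0.048), a call lost in 7 of 10 fits that left out 1 library. For the TLR4 cofactor gene Ly96, levels were at most 4.88 CPM.

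Fcgr3, the low-affinity IgG receptor also known as CD16 in mice, lies at chr1:171051169-171065915. Its level was 13.6 and 28.2 CPM in Cbfb::MYH11 tumors, 241, 147 and 189 CPM in MLL::AF9 tumors, 256, 140 and 168 CPM in MLL::ENL tumors, and 234 and 207 CPM in WT cKit+ cells. The Cbfb::MYH11 tumors were far below the rest, and the other conditions overlapped one another. Fcgr3 fell by 3.40 on the log2 scale against WT cKit+ cells (SE 0.46, edgeR adjusted p = 0.0023) and was the only one of the 3 lower genes whose call held without any 1 library. The MLL tumors were higher than Cbfb::MYH11 tumors by 3.19 (SE 0.42, edgeR adjusted p = 7.0e-04). For MLL::AF9 and MLL::ENL tumors against WT cKit+ cells the log2 fold changes were −0.20 (95% interval −1.04 to 0.65) and −0.23 (95% interval −1.07 to 0.61). Of the 50-base stretches of Fcgr3 transcripts, 9.58% also occur in Fcgr2b. Markers of mast cells and basophils, of which mast cells also carry FCGR3, summed to 1069 to 1078 CPM in Cbfb::MYH11 tumors, 3.16 to 169 CPM in MLL tumors, and 124 to 290 CPM in WT cKit+ cells, and their part in the Fcgr3 values was not tested. The 5 markers did not move together: Ms4a2, a chain of the IgE receptor, was higher in Cbfb::MYH11 than in WT libraries, at 841 and 747 CPM against 9.80 and 8.40 CPM, and Prss34 and Mcpt8, proteases of basophils, were lower, at means of 0.245 and 2.24 CPM against 140 and 39.2 CPM (edgeR adjusted p = 7.6e-04, 0.0022 and 0.045). Cpa3, a mast cell protease, had 225 and 330 CPM against 19.4 and 17.6 CPM and did not pass (edgeR adjusted p = 0.28), and Tpsb2 was at 0 counts in both Cbfb::MYH11 tumors.

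The partners of FCGR3 showed which members of the IgG receptor system were low with it. Fcer1g, the signalling chain that FCGR3 needs at the cell surface, had 22.9 and 22.8 CPM in Cbfb::MYH11 tumors against 376 and 258 CPM in WT cKit+ cells (log2 fold change −3.79, edgeR adjusted p = 0.0096), lost without either Cbfb::MYH11 tumor. Fcgr4, an activating receptor that uses the same chain, had 7.37 and 5.64 CPM in Cbfb::MYH11 tumors against 45.7 and 36.3 CPM in WT cKit+ cells (log2 fold change −2.65, edgeR adjusted p = 0.033). The Fcgr4 call was lost without either WT library or either Cbfb::MYH11 tumor. The inhibitory receptor gene Fcgr2b was higher in MLL::AF9 tumors, at 147, 85.6 and 174 CPM, than in WT cKit+ cells, at 46.1 and 44.5 CPM (log2 fold change 1.58, edgeR adjusted p = 0.040), but this call held in only 2 of 10 fits that left out 1 library. Fcgr1, the high-affinity receptor, and Syk, the kinase downstream, did not pass against WT cKit+ cells in any model, with levels of 0.902 to 13.6 CPM and 21.8 to 514 CPM over all libraries. Over the 17 ligands and partners listed for all 9 genes, 14 were tested. Their median log2 fold change in Cbfb::MYH11 tumors against WT cKit+ cells was −2.17, beside −0.01 over all genes. None was higher there, and 4 were lower, a call that 6.92% of all genes tested received. Leaving out a library gave counts of 1 (Cbfb::MYH11 27), 2 (Cbfb::MYH11 30, WT 1 or WT 2), 6 (MLL::AF9 2) or 3 to 5 (any other), and it was 7 by DESeq2 and 7 with only the groups compared.

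Ms4a6c, a tetraspanning membrane protein gene used as a monocyte marker in mice, lies at chr19:11469353-11487182. Its level was 16.8 and 12.7 CPM in Cbfb::MYH11 tumors, 139, 94.9 and 202 CPM in MLL::AF9 tumors, 34.6, 58.9 and 167 CPM in MLL::ENL tumors, and 38.6 and 40.2 CPM in WT cKit+ cells. All MLL::AF9 tumors stood above the WT libraries, and MLL::ENL L alone of the MLL::ENL tumors reached their range. Between MLL and Cbfb::MYH11 tumors the log2 fold change was 2.93 (SE 0.62, edgeR adjusted p = 0.0078). Against WT cKit+ cells, the differences did not pass, at −1.42 for Cbfb::MYH11, 1.88 for MLL::AF9 and 1.14 for MLL::ENL (edgeR adjusted p = 0.19, 0.11 and 0.29). Ms4a6c shares 10.5% of its 50-base stretches with other genes, most with Ms4a6b, so its counts, like those of Fcgr3 and Lyz2, are less certain than those of the other genes. Ms4a6b itself was higher in MLL than in Cbfb::MYH11 tumors (log2 fold change 3.36, edgeR adjusted p = 0.012), a call lost without Cbfb::MYH11 27. The related genes Ms4a6d, Ms4a4c and Ms4a7 passed in none of the 5 comparisons. Ms4a6d went the other way from Ms4a6c, with 11.1 and 8.31 CPM in Cbfb::MYH11 tumors against 2.53 and 2.61 CPM in WT cKit+ cells. Ms4a4c was lower, at 5.56 and 3.84 CPM against 13.4 and 7.84 CPM, and for Ms4a7 these libraries overlapped.

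Lyz2, the lysozyme of myeloid cells, lies at chr10:117277541-117282272, next to the promoter shown above, and had the highest level per length of the 9 genes. It had 118 and 93.2 CPM in Cbfb::MYH11 tumors, 12267, 641 and 4870 CPM in MLL::AF9 tumors, 3146, 672 and 746 CPM in MLL::ENL tumors, and 8509 and 5373 CPM in WT cKit+ cells. The Cbfb::MYH11 tumors were lowest, and the highest MLL::AF9 tumor exceeded the lowest 19.1-fold. Against WT cKit+ cells Lyz2 fell by 6.04 on the log2 scale in Cbfb::MYH11 tumors (SE 1.37, edgeR adjusted p = 0.023). The MLL tumors were higher than Cbfb::MYH11 tumors by 4.83 (SE 1.23, edgeR adjusted p = 0.018). All MLL::ENL tumors were below both WT libraries, with a log2 fold change of −2.19 that did not pass (edgeR adjusted p = 0.24). The fall in Cbfb::MYH11 tumors kept its direction in every alternative but did not pass without WT 1, WT 2, Cbfb::MYH11 30 or Cbfb::MYH11 27 (edgeR adjusted p = 0.088, 0.059, 0.13 and 0.15). Lyz2 shares 15.4% of its 50-base stretches with its paralog Lyz1, which had 40.2 CPM in MLL::AF9 2 and at most 3.87 CPM elsewhere.

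Lyz2 is also a gene of neutrophils, and its levels are set here beside those of neutrophil markers. Of 10 neutrophil markers, 9 were lower in Cbfb::MYH11 than in WT cKit+ cells, a call that 6.92% of all genes tested received. None of the 10 was at 0 counts in any library. Their summed level was 200.0 and 79.6 CPM in Cbfb::MYH11 tumors, 12077 to 155609 CPM in MLL::AF9 tumors, 3510 to 60640 CPM in MLL::ENL tumors, and 132148 and 76777 CPM in WT cKit+ cells. The libraries with the most Lyz2, MLL::AF9 2 and WT 1, also had the most neutrophil transcripts, and MLL::ENL NO had the most of both among MLL::ENL tumors. Elsewhere the orders differed. MLL::AF9 42 had more Lyz2 than MLL::ENL NO, at 4870 against 3146 CPM, with a lower neutrophil sum, at 32961 against 60640 CPM. MLL::ENL L had more Lyz2 than MLL::AF9 47, at 746 against 641 CPM, also with a lower neutrophil sum, at 3510 against 12077 CPM. The other 8 marker genes summed to 142 and 171 CPM in Cbfb::MYH11 tumors, 1211, 639 and 2009 CPM in MLL::AF9 tumors, 576, 649 and 739 CPM in MLL::ENL tumors, and 500.1 and 507 CPM in WT cKit+ cells. This sum was highest in MLL::AF9 42, which had fewer neutrophil transcripts than either WT library, and next highest in MLL::AF9 2, which had the most. The part of neutrophil content in these results was not tested.

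**Figure D2:**
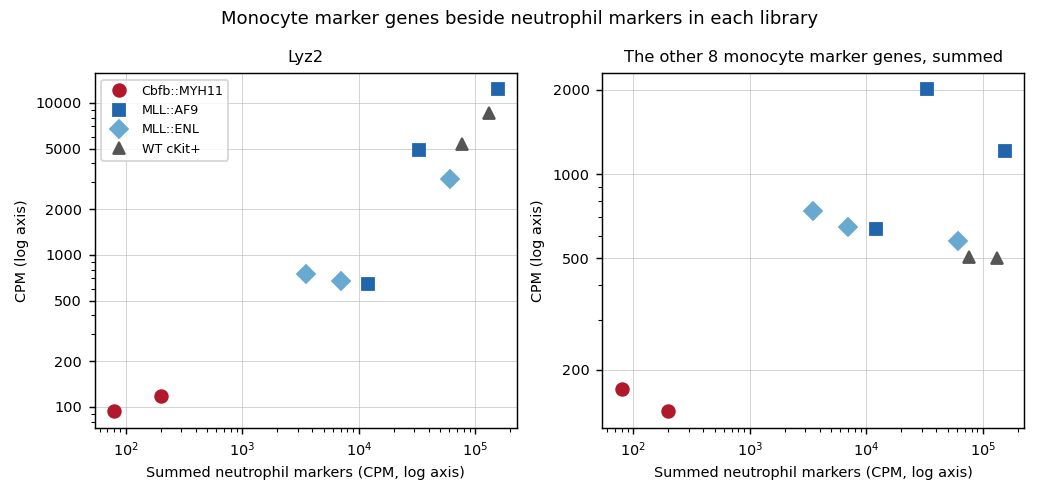
Lyz2 (left) and the summed level of the other 8 monocyte marker genes (right) against the summed level of 10 neutrophil markers, all in CPM on log axes, with a point per library and a symbol per condition. Lyz2 was highest, at 12267 CPM, in the MLL::AF9 library with the highest neutrophil sum, 155609 CPM, while the sum of the other 8 was highest in MLL::AF9 42, at 2009 CPM.

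Ctss, the lysosomal cysteine protease that trims the invariant chain of MHC class II, lies at chr3:95526786-95556405. It had 37.0 and 41.4 CPM in Cbfb::MYH11 tumors, 347, 86.3 and 233 CPM in MLL::AF9 tumors, 36.6, 34.4 and 115 CPM in MLL::ENL tumors, and 89.5 and 51.9 CPM in WT cKit+ cells. The values of MLL::ENL NO and RL were below those of both Cbfb::MYH11 tumors, so the groups overlapped. The log2 fold change between MLL and Cbfb::MYH11 tumors was 1.58 (SE 0.63), and it did not pass (edgeR adjusted p = 0.093), though it did by DESeq2, without a filter and without MLL::AF9 47 (adjusted p = 0.027 to 0.038). MLL::AF9 and MLL::ENL tumors differed by 1.84 (95% interval 0.53 to 3.15), with an edgeR adjusted p of 0.32. Cd74, the invariant chain itself, varied from 37.5 CPM in MLL::ENL L to 3828 CPM in MLL::AF9 2 and passed in no comparison. Cst3, which encodes the cathepsin inhibitor cystatin C, was higher in MLL than in Cbfb::MYH11 tumors (log2 fold change 1.59, edgeR adjusted p = 0.014), a call lost without either Cbfb::MYH11 tumor. The lysosomal proteases Lgmn and Ctsl passed in no comparison.

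F13a1, the catalytic subunit of coagulation factor XIII, which monocytes and macrophages make, lies at chr13:36867178-37050244. Its level was 45.7 and 58.5 CPM in Cbfb::MYH11 tumors, 217, 192 and 1031 CPM in MLL::AF9 tumors, 171, 336 and 163 CPM in MLL::ENL tumors, and 76.9 and 135 CPM in WT cKit+ cells. All 6 MLL tumors were above both WT libraries and both Cbfb::MYH11 tumors, and MLL::AF9 42 stood far above the others. The MLL tumors were higher than Cbfb::MYH11 tumors by 2.65 (SE 0.74, edgeR adjusted p = 0.026). Against WT cKit+ cells no log2 fold change passed, at −1.03 for Cbfb::MYH11, 2.18 for MLL::AF9 and 1.07 for MLL::ENL (edgeR adjusted p = 0.42, 0.13 and 0.40). F13b, the carrier subunit made in liver, had at most 0.0515 CPM.

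**Figure D3:**
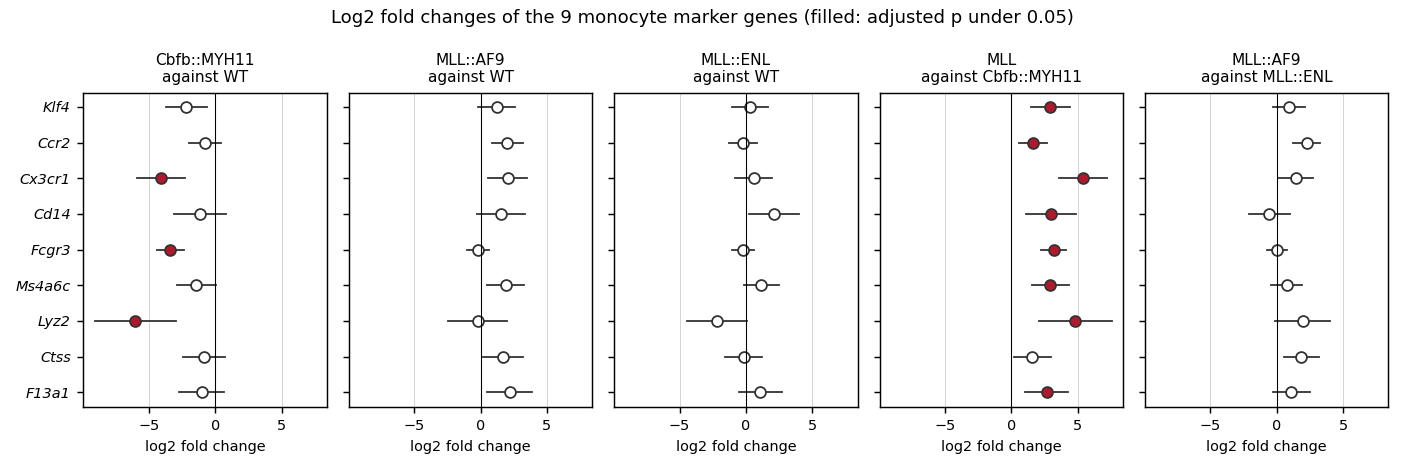
Log2 fold change of each monocyte marker gene in the 5 comparisons, first group over second, with its 95% interval as a line, filled where the adjusted p from edgeR was under 0.05. In Cbfb::MYH11 against WT 3 genes are filled, in MLL against Cbfb::MYH11 8 are filled, and in the other 3 comparisons none is.

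Across the comparisons, the 9 genes had a median log2 fold change of −1.42 in Cbfb::MYH11 tumors against WT cKit+ cells, 1.65 for MLL::AF9 and 0.27 for MLL::ENL against the same cells, 2.93 between MLL and Cbfb::MYH11 tumors, and 1.10 between MLL::AF9 and MLL::ENL tumors. Over all genes tested these medians lay between −0.01 and 0.08. The DESeq2 counts below stand beside larger totals over all genes than those of edgeR, given in the section on processing. For MLL against Cbfb::MYH11 no such DESeq2 total is given, and for limma-voom none is given at all. For Cbfb::MYH11 against WT, 3 genes passed by edgeR, 4 by DESeq2 and 2 by limma-voom. By edgeR only 1 gene passed when WT 2 or Cbfb::MYH11 27 was left out, and 2 passed when WT 1 or Cbfb::MYH11 30 was. For MLL against Cbfb::MYH11, 8 passed by edgeR, 9 by DESeq2 and 6 by limma-voom, and the 8 were also those whose 6 MLL libraries were all above both Cbfb::MYH11 libraries, a separation that 19.5% of all genes tested showed. Without either Cbfb::MYH11 tumor this count was 2, and the genes that still passed were Cx3cr1 and Fcgr3.

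In MLL::AF9 tumors none of the 9 genes passed by edgeR against WT cKit+ cells, where 2.88% of all genes tested passed. In that comparison 5 were at unadjusted p under 0.05 (24.4% of all genes), 4 passed by DESeq2 and 0 by limma-voom. DESeq2 also called more of all genes than edgeR did, against WT and between the MLL models. Its totals are given in the section on processing. Ccr2, Cx3cr1, F13a1 and Ms4a6c were higher in all 3 MLL::AF9 tumors than in both WT libraries, a separation that 20.4% of all genes tested showed. In MLL::ENL tumors, where 2.1% of all genes tested passed, none of the 9 passed by edgeR, 1 was at unadjusted p under 0.05 (22% of all genes), and 0 passed by DESeq2 or limma-voom. There Cd14 and F13a1 were above both WT libraries in all 3 tumors and Lyz2 below, separations that 21.2% and 23.1% of all genes tested showed. Between MLL::AF9 and MLL::ENL tumors 0.0134% of all genes tested passed. None of the 9 passed there by edgeR, 3 were at unadjusted p under 0.05 (10.2% of all genes), 2 passed by DESeq2 and 0 by limma-voom, and Ccr2 and Cx3cr1 were higher in all MLL::AF9 than in all MLL::ENL tumors, as 6.72% of all genes tested were. MLL::AF9 2 also carried markers of T cells, at 197 CPM over 5 genes against at most 21.6 CPM in any other library, and of B cells, at 1106 CPM over 6 genes against at most 482 CPM. Markers of dendritic cells summed over 8 genes to 26.8 to 76.3 CPM in MLL::AF9 tumors and 3.88 to 8.55 CPM in MLL::ENL tumors. Their sum was 9.65 to 10.1 CPM in Cbfb::MYH11 tumors and 24.4 to 25.7 CPM in WT cKit+ cells. The 8 did not move together. Itgax made up most of the MLL::AF9 sums, at 40.6, 21.8 and 23.1 CPM beside 3.40 and 5.63 CPM in WT libraries. Zbtb46 and Siglech were lower in all 3 MLL::AF9 tumors than in both WT libraries. They had 0.938 to 6.15 CPM against 8.37 and 7.89 CPM, and 0.141 to 1.05 CPM against 4.34 and 7.24 CPM. The part of T, B and dendritic cells in the MLL::AF9 values was not tested.

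On the TPM scale, on which counts are divided by transcript length, Lyz2 was the highest of the 9 genes in every library, from 83.9 TPM in Cbfb::MYH11 27 to 7784 TPM in MLL::AF9 2, where it ranked 19th of all rows. It made up 55.9% and 46.2% of the summed TPM of the 9 in Cbfb::MYH11 tumors, 61.1% to 93.3% in MLL::AF9 tumors, 57.8% to 88.4% in MLL::ENL tumors, and 95.4% and 93.8% in WT cKit+ cells. Behind it came Ctss in both Cbfb::MYH11 tumors and in MLL::AF9 2, F13a1 in MLL::AF9 42, and Fcgr3 in the other 6 libraries. The lowest was Cx3cr1, Klf4 or Cd14 in every library, and Cx3cr1 in Cbfb::MYH11 tumors had 0.30 and 0.07 TPM.

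The order of the conditions by mean CPM also differed among the 9 genes. Cbfb::MYH11 tumors were lowest for all 9, and for all but Ctss their libraries did not overlap those of the next condition. MLL::AF9 tumors were highest for 6 genes, without overlap with the next condition only for Ccr2 and Cx3cr1. For Lyz2 and Fcgr3 WT cKit+ cells were highest, and for Cd14 MLL::ENL tumors were, with overlap between the first and second condition in each. By the mean absolute difference of their centred log2 CPM over the 10 libraries, the most alike pair among the 9 was Ccr2 and Ctss, at 0.34, followed by Klf4 and Ms4a6c, at 0.50. Over all genes tested, the gene most like each marker was Nrp1 for Ccr2 (0.29), Il21r for Cx3cr1 (0.42), 2510016D11Rik for Cd14 (0.35), Mocos for Lyz2 (0.34) and Bcl3 for F13a1 (0.28). For the others it was Lpar6 for Klf4 (0.18), Msrb1 for Fcgr3 (0.19), Ly86 for Ms4a6c (0.27) and Irf5 for Ctss (0.24).

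Several factors that drive monocyte development were lower in Cbfb::MYH11 tumors as well. Of 8 monocyte transcription factor genes, 4 were lower there than in WT cKit+ cells, as 6.92% of all genes tested were, and none was higher. The 8 had a median log2 fold change of −1.35. In MLL against Cbfb::MYH11 tumors 6 of them were higher, a call that 13.2% of all genes tested received. Cebpa, the C/EBP protein of myeloid progenitors, had 7.78 and 13.6 CPM in Cbfb::MYH11 tumors against 114 and 125 CPM in WT cKit+ cells (log2 fold change −3.48, edgeR adjusted p = 0.00945). Irf8, the factor that steers progenitors to monocytes and dendritic cells, had 13.6 and 16.0 CPM against 123 and 110 CPM (log2 fold change −2.97, edgeR adjusted p = 0.014). Spi1, encoding PU.1, had 75.4 and 90.9 CPM in Cbfb::MYH11 tumors against 360 and 244 CPM in WT cKit+ cells (log2 fold change −1.86, edgeR adjusted p = 0.011). Cebpb, a C/EBP protein of mature monocytes, passed with every library left out in turn, with a log2 fold change of −3.13 (edgeR adjusted p = 0.0039). The count of 4 was 1 with limma on log2(TPM + 1), 1 without either Cbfb::MYH11 tumor, 2 without WT 1 and 3 without WT 2. Zeb2, a repressor active in monocytes, was higher in MLL::ENL tumors than in WT cKit+ cells (log2 fold change 2.17, edgeR adjusted p = 0.038), a call that held in 3 of 10 fits that left out 1 library.

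**Figure D4:**
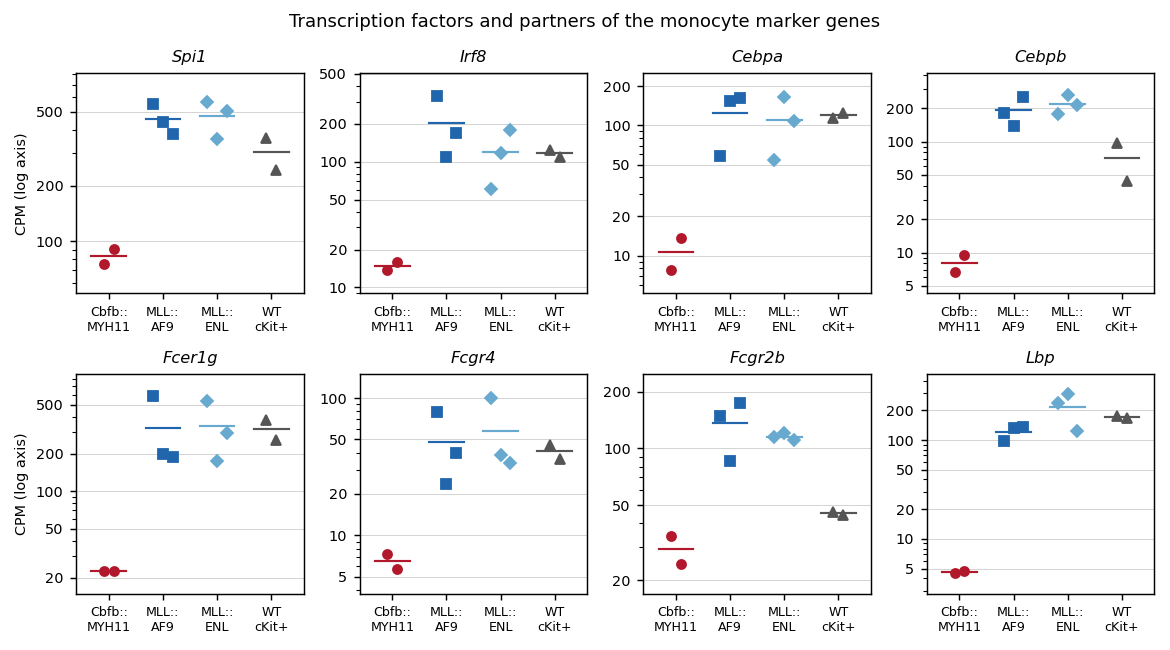
Level of 4 monocyte transcription factor genes (top) and 4 partners of Fcgr3 and Cd14 (bottom) in the 10 libraries, in CPM on a log axis, with a point per library and a bar at the mean of each condition. In 7 panels both Cbfb::MYH11 tumors lie below both WT libraries by a wide gap, as in Lbp with 4.48 and 4.77 CPM against 173 and 166 CPM, while the gap is narrower for Fcgr2b.

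Other genes of classical monocytes followed Lyz2, Cx3cr1 and Fcgr3 in part. Of 14 such genes, 5 were lower in Cbfb::MYH11 than in WT cKit+ cells, as 6.92% of all genes tested were, and none was higher. The 14 had a median log2 fold change of −1.78. In MLL against Cbfb::MYH11 tumors 11 of them were higher, a call that 13.2% of all genes tested received. The 5 became 9 by DESeq2, 8 without a filter, and 9, with 2 higher, with only the groups compared, and the 11 became 7 without Cbfb::MYH11 30. The largest differences from WT cKit+ cells were those of Ms4a3, a gene of granulocyte and monocyte progenitors (−6.72, edgeR adjusted p = 0.0033), Chil3, a chitinase-like protein of myeloid cells (−5.76, adjusted p = 0.012), Ly6c2, the surface protein that defines classical monocytes in mice (−4.55, adjusted p = 0.0040), and Plac8 (−4.48, adjusted p = 9.9e-04). Csf1r, the receptor for the growth factor of monocytes and macrophages, passed in no comparison. It had 85.4 and 94.6 CPM in Cbfb::MYH11 tumors against 66.4 and 70.0 CPM in WT cKit+ cells. Fn1 and Vcan, also among the 14, went in the same direction as Csf1r, and neither passed by edgeR. Fn1 had 51.7 and 71.2 CPM in Cbfb::MYH11 libraries beside 19.1 and 17.8 CPM in WT libraries. For Vcan the levels were 4.22 and 3.31 CPM beside 0.158 and 0.704 CPM. Of 10 genes of patrolling monocytes, Cd36, a scavenger receptor, and Itgal, an integrin chain, were lower in Cbfb::MYH11 than in WT cKit+ cells, with log2 fold changes of −5.48 and −2.77 (edgeR adjusted p = 0.026 and 0.00315). In the other direction Spn, which encodes leukosialin (CD43), was higher, at 795 and 1025 CPM against 279 and 355 CPM (log2 fold change 1.52, edgeR adjusted p = 0.037). Nr4a1, on which patrolling monocytes depend, was higher in MLL than in Cbfb::MYH11 tumors by 3.90 (edgeR adjusted p = 0.0090). The call of Cd36 was lost without either WT library or either Cbfb::MYH11 tumor, that of Nr4a1 without Cbfb::MYH11 27, and that of Spn in 7 of 10 fits that left out 1 library and with library totals in place of TMM. The count of 2 lower genes was 3 by DESeq2, 4 with only the groups compared and 5 without a filter.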

How the data were processed

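RNA was sequenced from 10 mice, 1 library each (2 Cbfb::MYH11, 3 MLL::AF9, 3 MLL::ENL and 2 WT). Per the submitters' processing notes, the authors used FastQC, STAR and RSEM, with mm10 as the genome (versions are not given in the sources used here). The deposited tables hold expected counts, which RSEM estimates and splits between genes where reads map to several, together with TPM, which the authors' pipeline scaled for length and to a fixed sum in each library. The deposited FPKM values were not used. Expected counts were rounded to whole numbers before testing. Library totals of 12134917 to 20510574 counts set the precision of low genes. Symbols on more than 1 row numbered 92, none of them a marker gene.

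Genes were filtered with filterByExpr, scaled by TMM and tested with edgeR 4.0.16 in R 4.3.3 (glmQLFit and glmQLFTest) in 1 fit of all 10 libraries, so that groups of 2 and 3 shared an estimate of the spread, with 6 residual degrees of freedom. The 5 comparisons were each model against WT, the mean of the MLL models against Cbfb::MYH11, and MLL::AF9 against MLL::ENL, and p-values were adjusted by Benjamini-Hochberg over all 14875 genes tested. These p-values set each difference against the spread between mice, pooled over all conditions. Alternatives were DESeq2 1.42.0, limma 3.58.1 (voom, and log2(TPM + 1)), no filter, a minimum of 1 CPM in 3 libraries, only the groups compared, and each library left out in turn. Library totals in place of TMM scaling were added after seeing the data. Named genes were the 9 markers, their ligands, partners and paralogs as described, the gene most like each marker (smallest mean absolute difference of row-centred log2 CPM, prior count 2), and up to 4 genes with the largest differences among those that passed in each other monocyte list and comparison. Markers and lists were chosen with earlier results of these data known. Shared sequence was counted as 50-base stretches of GENCODE vM21 transcripts found in other genes. Gene positions and promoters came from RefSeq on GRCm38.p6, the assembly also called mm10. Among the lists, 1 classical monocyte gene is not reported here. The code was tested on simulated data.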

Additional observations from a re-analysis of the deposited data

Results flagged for a closer look

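The differences of the MLL tumors from WT cKit+ cells and those of the Cbfb::MYH11 tumors from the same cells were unequal for 8 of the 9 monocyte marker genes, as tested directly by the comparison of MLL with Cbfb::MYH11 tumors in the edgeR fit. Of all genes tested, 25.6% passed in that comparison, and 13.2% passed as higher. On the log2 scale, first group over second, the differences were 5.41 for Cx3cr1, 4.83 for Lyz2, 3.19 for Fcgr3, 2.96 for Cd14, 2.93 for Klf4, 2.93 for Ms4a6c, 2.65 for F13a1 and 1.64 for Ccr2. Among these, all 3 MLL::AF9 libraries lay on the other side of WT cKit+ cells from the Cbfb::MYH11 tumors for Cx3cr1, Ccr2, F13a1 and Ms4a6c. All 3 MLL::ENL libraries did so for Cd14 and F13a1. None of the 9 genes passed between either MLL model and WT cKit+ cells. Of all genes tested, 20.4% had all MLL::AF9 libraries above both WT libraries, and 21.2% had all MLL::ENL libraries above them. Both Cbfb::MYH11 libraries were below both WT libraries for 31.9%.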

How the results depend on the processing

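Of 765 values of the 9 genes over 17 alternatives and 5 comparisons, 693 kept their direction and their side of the threshold, 28 lost the call, 24 gained one and 20 changed sign, none of them for a called gene. The count for Cbfb::MYH11 against WT was 5 when only the groups compared entered the fit, and 1 to 4 with each library left out. For MLL::AF9 against WT it was 4 with DESeq2, 4 without a filter, 1 with limma on log2(TPM + 1), and 0 to 1 with each library left out. For MLL::ENL against WT it was 1 with only the groups compared. For MLL against Cbfb::MYH11 it was 2 to 9 with each library left out. For MLL::AF9 against MLL::ENL it was 2 with DESeq2, 2 without a filter, and 0 to 1 with each library left out. The causes were not tested. Over all genes, edgeR and DESeq2 called 1556 and 2888 genes between Cbfb::MYH11 and WT, 429 and 2124 between MLL::AF9 and WT, 313 and 1815 between MLL::ENL and WT, and 2 and 481 between the MLL models. Between MLL and Cbfb::MYH11 tumors edgeR called 3806 genes, and the DESeq2 total is not given here. All 5 counts of marker genes kept within 1.5 times, or at 0, with a minimum of 1 CPM in 3 libraries and with library totals in place of TMM.

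The scaling moved the median of all genes against WT to 0.31, 0.40 and 0.37 (Cbfb::MYH11, MLL::AF9, MLL::ENL) with library totals and to 0.52, 0.53 and 0.51 on log2(TPM + 1), and small differences changed sign with it. Fcgr3 in MLL::AF9 became 0.0983 with library totals and 0.45 on log2(TPM + 1), and in MLL::ENL 0.086 and 0.39. Ccr2 in MLL::ENL became 0.11 and 0.30, and Ctss in MLL::ENL 0.27 and 0.29. With each library left out in turn, the uncalled differences that changed sign ranged over −1.31 to 0.31 for Lyz2 and −0.041 to 2.01 for Cd14 in MLL::AF9 against WT. They ranged over −0.99 to 0.21 for Ctss, −0.38 to 0.91 for Cx3cr1 and −0.21 to 0.52 for Klf4 in MLL::ENL against WT, and over −0.14 to 0.34 for Fcgr3 and −0.12 to 1.53 for F13a1 in MLL::AF9 against MLL::ENL.

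All 49 calls of the other monocyte genes kept their direction in 833 refits, and 97 of these refits lost the call. No paired analysis was possible because the groups compared share fewer than 2 replicate numbers. With 2 libraries in 2 of the conditions, calls against Cbfb::MYH11 or WT rest on few mice, and levels near 1 CPM, such as Cx3cr1 in Cbfb::MYH11 tumors, rest on few counts.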

Other observations

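Macrophage genes had another pattern than the monocyte marker genes. C1qa, C1qb and C1qc, the chains of complement C1q made by tissue macrophages, had 34.9 to 85.9 CPM in Cbfb::MYH11 tumors, 0.464 to 18.3 CPM in MLL tumors and 32.8 to 86.3 CPM in WT cKit+ cells. All 3 were lower in MLL than in Cbfb::MYH11 tumors, by −3.48, −2.61 and −3.38 on the log2 scale (edgeR adjusted p = 0.0056, 0.018 and 0.0028), the opposite direction to the 8 monocyte marker genes that passed there. Of 11 macrophage markers tested, 7 were lower and 1, Adgre1, was higher in that comparison, in which 12.4% of all genes tested passed as lower and 13.2% as higher, and none passed between Cbfb::MYH11 tumors and WT cKit+ cells. The summed level of the 12 markers listed was 251 and 430 CPM in Cbfb::MYH11 tumors, 89.7 to 248 CPM in MLL tumors, and 462 and 421 CPM in WT cKit+ cells, and up to 3 of them were at 0 counts in an MLL library. These genes were singled out after their values were seen.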
